A study of Mus musculus with 6 samples.

Results

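The phagocyte NADPH oxidase and its Rac partners were described here by 8 genes chosen by name: Cybb, Cyba, Ncf1, Ncf4, Rac1, Rac2, Rap1a and Hvcn1, out of 54532 genes in the deposited expression file. All 8 were measured and all 8 passed the filter on low values, which left 14807 genes for testing. The libraries came from bone marrow neutrophils of C57BL/6J mice, isolated with anti-Ly-6G magnetic beads, from wild-type (WT) mice and from mice labelled Progranulin knock out (PGRN KO), which lack Grn in every cell. Every library, WT included, came from cells kept with live Candida albicans for 6 h, so no unstimulated level was analysed here and the values compare genotypes after challenge. There were 3 WT libraries (replicates 1 to 3) and 3 PGRN KO libraries (replicates 4 to 6). The study's methods give the PGRN KO mice and the WT mice different suppliers, so genotype and source of the mice cannot be told apart, and the labels give no ages. Nothing in the labels says that the libraries came from separate mice or cultures, so p-values measure the spread between these libraries, which may be technical.

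The phagocyte oxidase makes superoxide by passing electrons from NADPH across the membrane to oxygen. Its catalytic core is flavocytochrome b558, a pair of membrane proteins (gp91phox and p22phox), which stays inactive until cytosolic subunits (p47phox and p40phox among them) and GTP-bound Rac move to it. Neutrophils use this burst to kill ingested fungi, and inherited loss of a subunit causes chronic granulomatous disease, with recurrent fungal and bacterial infections. In the study this gene group bears on the question of whether PGRN KO neutrophils differ from WT neutrophils in their reactive oxygen species.

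Values are FPKM, fragments scaled to gene length and library size, as the authors computed them. Each library held between 17087344 and 18821091 fragments in genes. Grn itself lay between 161.3 and 168.4 FPKM in the WT libraries and between 0.206 and 0.747 FPKM in the PGRN KO libraries. By limma on log2(FPKM + 1), with Benjamini-Hochberg adjusted p under 0.05, 17.9% of the genes tested differed between genotypes, 7.94% higher and 9.95% lower in PGRN KO. The scale matters for small differences: with plain fragment totals in place of the authors' scaling, 20.8% of genes were called and the share of calls that were higher moved from 44.4% to 69.7%. At the authors' scaling the median log2 difference of the 3482 genes with a mean of at least 10 FPKM was -0.054, and with plain totals it was 0.063.

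Of the 8 genes, 2 were called, Rac2 and Ncf1, both higher in PGRN KO (25.0%, beside 17.9% of all genes tested). The 17.9% takes in many low genes. With the filter at a mean of at least 1 FPKM, 2868 genes were called, out of 4522 with a positive and 4727 with a negative log2 difference. The 25.0% does not stand above that share, since the 8 genes again held 2 calls, Rac2 and Ncf1. Both calls were lost when limma's eBayes was run without a trend (adjusted p = 0.0619 for Rac2 and 0.0852 for Ncf1), and the count was 0 without WT 1, WT 2 or PGRN KO 5 (limma, with 3, 2 and 3 genes at an unadjusted p under 0.05). The differences were small: 1.13-fold for Rac2 and 1.11-fold for Ncf1. In 4 of the 8 genes the libraries of the 2 genotypes did not overlap, higher in PGRN KO for Cyba, Ncf1 and Rac2 and lower for Hvcn1, and 37.7% of all genes tested separated in this way. The median absolute log2 difference of the 8 genes was 0.114, below the 0.136 of all genes tested and the 0.176 of genes with a mean of at least 10 FPKM.

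Promoter sequence from RefSeq (GRCm38.p6) was matched for Ncf1, Cyba and Cybb. No promoter was matched for the others, Rac2 among them, and a link between motifs and genotype differences was not tested. The 250 bases before each start are shown for all 3 matched genes, of the 8. They read 5' to 3' on the gene's strand, chr5:134229626-134229875 (minus strand) for Ncf1, chr8:122432941-122433190 (minus strand) for Cyba and chrX:9469325-9469574 (minus strand) for Cybb, with motif matches on either strand in capitals.
Ncf1: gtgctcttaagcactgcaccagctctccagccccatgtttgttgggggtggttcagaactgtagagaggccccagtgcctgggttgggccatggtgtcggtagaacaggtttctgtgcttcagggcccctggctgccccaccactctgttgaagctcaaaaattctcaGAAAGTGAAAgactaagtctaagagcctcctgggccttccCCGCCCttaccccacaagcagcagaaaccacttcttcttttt
Cyba: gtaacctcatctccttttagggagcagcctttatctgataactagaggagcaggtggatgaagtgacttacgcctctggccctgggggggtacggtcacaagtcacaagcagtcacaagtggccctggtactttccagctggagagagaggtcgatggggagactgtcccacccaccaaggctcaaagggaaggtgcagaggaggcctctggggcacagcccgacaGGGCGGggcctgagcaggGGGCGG
Cybb: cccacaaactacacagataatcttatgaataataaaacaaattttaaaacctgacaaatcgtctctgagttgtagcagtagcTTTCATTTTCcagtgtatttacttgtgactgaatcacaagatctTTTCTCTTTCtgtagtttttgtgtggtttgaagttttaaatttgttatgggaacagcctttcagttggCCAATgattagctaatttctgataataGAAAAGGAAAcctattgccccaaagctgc
The motifs searched, on both strands, were GAGGAA (an ETS factor site), CCAAT (the box named after it), TATAAA (the box near many start sites) and GGGCGG (a GC box). An interferon response element spelled TTTC, any 2 bases, then TTTC was searched as well. None of the matches overlapped another. GAGGAA holds the shorter ETS core GGAA, which was not searched by itself. The GC box occurred once before Ncf1 and in 2 places before Cyba but not before Cybb, against 32.7% of 32851 promoters of this length. The interferon response element occurred once before Ncf1 and in 3 places before Cybb but not before Cyba, against 2.98% of promoters. CCAAT occurred before Cybb alone among these genes (33.8% of promoters), and GAGGAA (23.3%) and TATAAA (12.4%) in none of them. GC content was 54.4% for Ncf1, 60.0% for Cyba and 34.0% for Cybb, against a median of 52.4% over all promoters. The RefSeq start of Cybb lies inside the gene as the deposited file spans it. A match describes letters in the window and is not a binding site.

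Cybb, on chromosome X (GRCm38, 9435252 to 9487771, minus strand), encodes gp91phox, which carries the flavin and haem groups. Its level was 323.2, 315.7 and 326.4 FPKM in the WT libraries and 307.6, 295.1 and 321.4 FPKM in the PGRN KO libraries. The genotypes overlapped, and the log2 difference of -0.063 (SE 0.044, 95% interval -0.17 to 0.042, limma adjusted p = 0.382) did not pass. Cyba, on chromosome 8 (122424776 to 122432930, minus strand), encodes p22phox, which stabilises gp91phox and docks p47phox. Its level was 912.6, 870.8 and 796.0 FPKM in WT and 975.5, 985.1 and 914.3 FPKM in PGRN KO. The lowest PGRN KO library stood just above the highest WT library, and the log2 difference of 0.16 (SE 0.062, 95% interval 0.0096 to 0.31) did not pass (limma adjusted p = 0.134, unadjusted p = 0.0401). Cyba was called higher under quantile normalization (limma adjusted p = 0.0200), plain totals (0.0264) and voom on recovered fragments (0.000561). Cybc1, which encodes the chaperone that helps gp91phox and p22phox mature and is not among the 8 genes, averaged 23.7 ± 0.544 FPKM over the WT libraries and 23.7 ± 0.522 FPKM over the PGRN KO libraries (mean ± SD, n = 3 each).

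**Figure D1:**
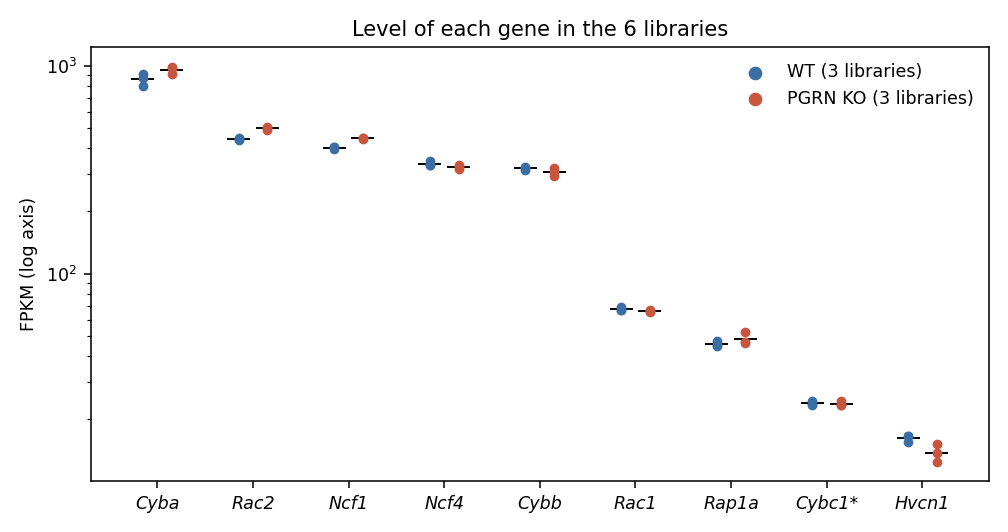
FPKM (log axis) of the 8 genes, with Cybc1 starred as not belonging to them, in each WT and PGRN KO library (points), with group means as bars. Cyba is highest and Hvcn1 lowest, and the genotypes differ far less than the genes do.

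Ncf1, on chromosome 5 (134220053 to 134229625, minus strand), encodes p47phox, the organiser that is phosphorylated on activation and carries the cytosolic complex to the membrane. Its level was 405.6, 408.0 and 395.7 FPKM in WT and 449.6, 446.2 and 447.9 FPKM in PGRN KO. Every PGRN KO library lay above every WT library, and Ncf1 rose 1.11-fold (log2 difference 0.15, SE 0.035, 95% interval 0.068 to 0.24, limma adjusted p = 0.0284). The call was lost without any 1 of WT 1, WT 2, WT 3, PGRN KO 5 or PGRN KO 6, with limma adjusted p from 0.0443 (without PGRN KO 4) to 0.0976, while the log2 difference stayed between 0.14 and 0.16. Of its exon bases, 11.1% are shared with Gtf2ird2, a neighbouring transcription factor gene, which rose from 6.53 ± 0.160 to 10.2 ± 1.35 FPKM (SD, n = 3, limma adjusted p = 0.00894), a level far below that of Ncf1. The part of the shared bases in the difference was not tested.

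Ncf4, on chromosome 15 (78244801 to 78262580, plus strand), encodes p40phox, which binds a phosphoinositide of the phagosome. Its level was 347.1, 331.1 and 333.0 FPKM in WT and 332.9, 319.3 and 324.5 FPKM in PGRN KO. The groups overlapped, with a log2 difference of -0.050 (95% interval -0.14 to 0.044, limma adjusted p = 0.441). Summed over Cybb, Cyba, Ncf1 and Ncf4, the subunits came to 1922 ± 68.8 FPKM for WT and 2040 ± 29.2 FPKM for PGRN KO (mean ± SD, n = 3), a sum in which Cyba weighs most.

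Rac2, on chromosome 15 (78559167 to 78572783, minus strand), encodes the Rac GTPase of blood cells that activates the neutrophil oxidase. Its level was 441.9, 437.8 and 448.1 FPKM in WT and 489.9, 502.8 and 504.5 FPKM in PGRN KO. The genotypes were well apart, and Rac2 rose 1.13-fold (log2 difference 0.17, SE 0.036, 95% interval 0.087 to 0.26, limma adjusted p = 0.02). The call was lost without WT 1 (limma adjusted p = 0.0739), WT 2 (0.0966) or PGRN KO 5 (0.0789), with a log2 difference between 0.16 and 0.19 in all of the 6 fits that each left out 1 library. Rac1, on chromosome 5 (143503634 to 143528036, minus strand), encodes the widely expressed Rac, which also drives actin remodelling. Its level was 69.1, 67.0 and 66.9 FPKM in WT and 66.0, 67.0 and 65.6 FPKM in PGRN KO. The groups overlapped, with a log2 difference of -0.031 (95% interval -0.12 to 0.056, limma adjusted p = 0.610). Rac2 made up 86.7 ± 0.261% of the summed Rac1 and Rac2 FPKM for WT and 88.3 ± 0.186% for PGRN KO (mean ± SD, n = 3). No stretch of 100 bases of the main Rac1 transcript recurred in Rac2, while 51.4% of the exon bases of Rac1 are shared with Daglb, itself at 0.986 FPKM in WT and 0.688 FPKM in PGRN KO.

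Rap1a, on chromosome 3 (105727267 to 105801336, minus strand), encodes a small GTPase that copurifies with flavocytochrome b558 and otherwise controls integrin adhesion. Its level was 44.7, 47.5 and 45.2 FPKM in WT and 46.3, 46.7 and 52.3 FPKM in PGRN KO. The groups overlapped and PGRN KO 6 stood highest, with a log2 difference of 0.077 (95% interval -0.064 to 0.22, limma adjusted p = 0.431). Of the 100-base windows of its main transcript, 3.03% recur in 1 other gene, Gm9392, which rose from 12.7 to 20.1 FPKM (limma adjusted p = 0.0399). Hvcn1, on chromosome 5 (122206804 to 122242297, plus strand), encodes the voltage-gated proton channel that offsets the charge moved by the oxidase. Its level was 16.5, 16.5 and 15.5 FPKM in WT and 12.5, 13.7 and 15.1 FPKM in PGRN KO. All PGRN KO libraries lay below all WT libraries, but the log2 difference of -0.23 (SE 0.073, 95% interval -0.40 to -0.051) did not pass (limma adjusted p = 0.0808, unadjusted p = 0.0189). Without PGRN KO 6, the library nearest to WT, it was called lower (log2 difference -0.29, limma adjusted p = 0.0352). Without PGRN KO 4, the library farthest from WT, it was not (-0.16, limma adjusted p = 0.154). Of the 6 fits that each left out 1 library, 1 called Hvcn1, with limma adjusted p up to 0.207. Hvcn1 shares 44.2% of its exon bases with Tctn1, at 0.264 FPKM in WT and 0.366 FPKM in PGRN KO.

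**Figure D2:**
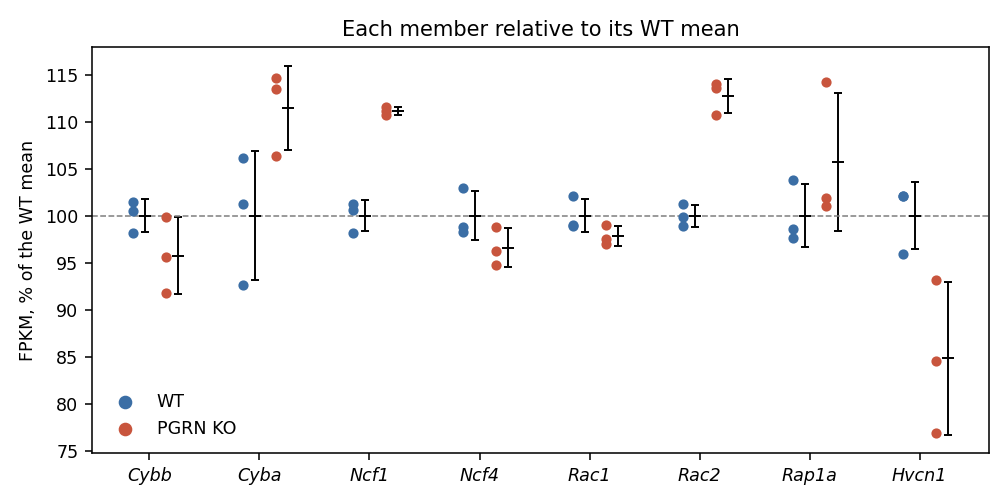
Level of each gene in every library as a percent of its WT mean (dashed line at 100), with the mean ± SD of each genotype. For Rac2, Ncf1 and Cyba every PGRN KO point lies above every WT point, and for Hvcn1 every one lies below.

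Within each library the order of FPKM was Cyba, Rac2, Ncf1, Ncf4, Cybb, Rac1, Rap1a and Hvcn1, the same in 6 of 6 libraries. Cyba stood 1.93-fold above Rac2, and Cybb 4.70-fold above Rac1. The library ranges of Rac2 and Ncf1 overlapped (1.11-fold between their means), as did those of Ncf4 and Cybb (1.05-fold). FPKM divides by all exon bases of a gene, so the order depends on the gene model. Recomputed per length of the principal transcript, the WT levels were 1201 for Cyba, 512.4 for Ncf1, 465.1 for Ncf4, 452.0 for Rac2 and 393.3 for Cybb, so Rac2 then stood below Ncf1 and Ncf4.

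Ratios between these genes within a library do not depend on how libraries are scaled. Of the 28 pairs, 16 did not overlap between genotypes, each with an exact two-sided permutation p of 0.10, the smallest that 3 against 3 libraries allow (0.175 after Benjamini-Hochberg adjustment over the 28 pairs). No pair could therefore pass the threshold. The ratio of Ncf1 to Cybb was 1.26, 1.29 and 1.21 in WT and 1.46, 1.51 and 1.39 in PGRN KO. The ratio of Ncf1 to Ncf4, both cytosolic subunits, was 1.17, 1.23 and 1.19 in WT and 1.35, 1.40 and 1.38 in PGRN KO. The ratios within the membrane pair and within the Rac pair separated as well. Cyba to Cybb was 2.82, 2.76 and 2.44 in WT and 3.17, 3.34 and 2.85 in PGRN KO (log2 difference 0.16 to 0.29 when 1 library was left out), and Rac2 to Rac1 was 6.40, 6.53 and 6.69 in WT and 7.42, 7.50 and 7.69 in PGRN KO. In contrast, Rac2 to Ncf1 differed by 0.02 on the log2 scale (exact permutation p = 0.6) and Ncf4 to Cybb by 0.014 (exact permutation p = 0.8). Rac2, Ncf1 and Cyba, grouped after their values were seen, were apart from the other 5 genes in 12 of 15 pairs. The 3 of these 15 pairs that overlapped were those with Rap1a. Among themselves the 3 genes were apart in 0 of 3 pairs. They were grouped because they lay higher in PGRN KO, which favours separation by itself, so these counts do not test a group. The share of such pairs among other genes was not computed. The other 5 genes were not alike among themselves either, since 4 of their 10 pairs did not overlap, all of them with Hvcn1.

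**Figure D3:**
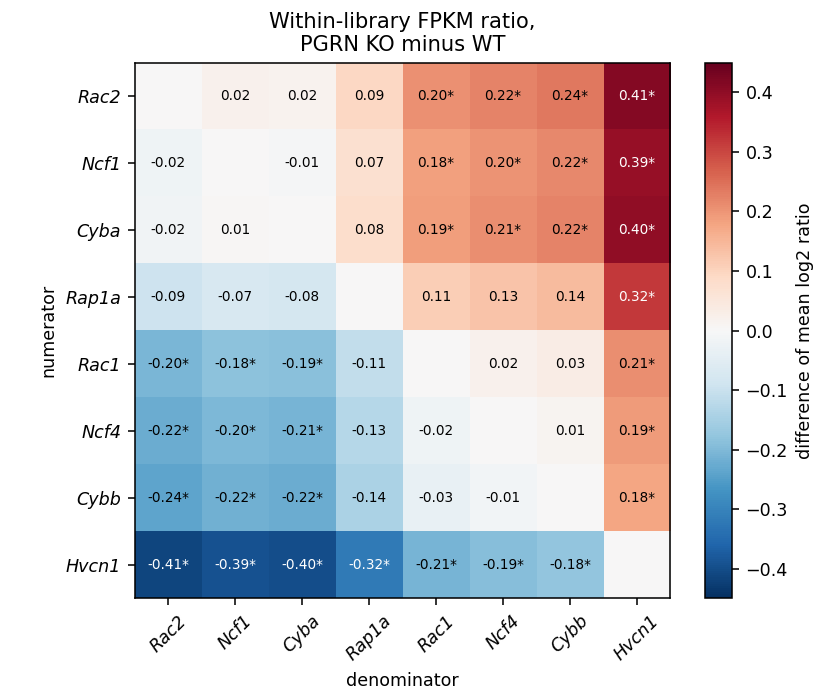
Difference between genotypes (PGRN KO minus WT) in the mean log2 ratio of each row gene to each column gene, taken within libraries. A star marks pairs whose genotypes do not overlap, 16 of 28. Rac2, Ncf1 and Cyba were placed together after their values were seen.

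Set against the median of genes with a mean of at least 10 FPKM, the log2 difference of Rac2 was 0.22 to 0.23 over 5 scalings (the authors', median of ratios, quantile, plain totals and voom), that of Ncf1 0.18 to 0.21 and that of Cyba 0.21 to 0.32. Cybb lay between -0.0099 and 0.011 and Ncf4 between 0.00027 and 0.0076 on the same measure. Before that median was subtracted, plain totals gave 0.29 for Rac2 and 0.27 for Ncf1, both called higher. The directions of Cybb, Ncf4 and Rac1 turned positive with plain totals (0.057, 0.070 and 0.087), none of them called. Hvcn1 lay at -0.20 to -0.17 with the median subtracted, and at -0.11 with plain totals before subtraction (limma adjusted p = 0.330).

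**Figure D4:**
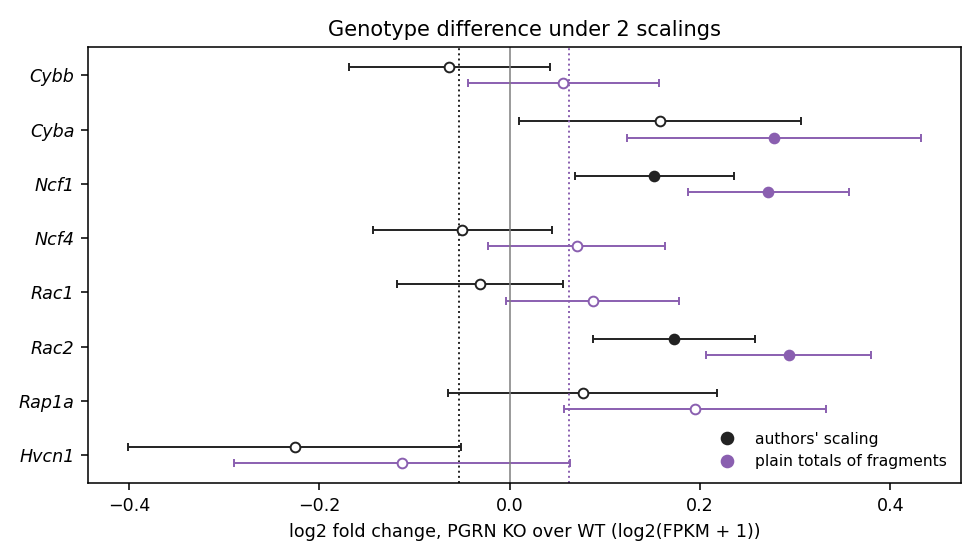
Log2 difference (PGRN KO minus WT) of each gene at the authors' scaling (black) and with plain totals (purple), with 95% intervals. Filled points have an adjusted p under 0.05 and dotted lines mark the median of genes with a mean of at least 10 FPKM under each scaling, to which Cybb and Ncf4 lie close.

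Other genes of the pathway were taken from lists by role, 95 genes of which 79 could be tested. Of these, 11 rose, 13 fell and 55 did not pass. The median log2 difference of the 79 was -0.045, beside 0.0026 over all genes tested and -0.054 over genes with a mean of at least 10 FPKM. The 24 called of 79 stand beside 17.9% of all genes tested, a share that takes in many low genes. With the filter at a mean of at least 1 FPKM, 26 pathway genes were called, of 26 with a positive and 45 with a negative log2 difference. All genes then had 2868 calls, of 4522 positive and 4727 negative differences. Whether the lists differ from other expressed genes was not tested. The balance of pathway calls depended on the scaling and on single libraries. With plain totals 16 were higher and 10 lower, with a median of 0.054. With voom 25 were higher and 13 lower, and without PGRN KO 5 only 1 was higher and 10 lower. Without WT 1 or WT 2, 3 were higher, with 11 and 10 lower. The other oxidase family genes were mostly silent, with 6 of 11 listed at 0 in every library and 0 of 3 tested called by limma (0 at an unadjusted p under 0.05).

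Among genes listed as Rac exchange factors, which load Rac with GTP, 2 of 15 rose and 2 fell. For this and the next lists, the shares over all genes tested were 7.94% higher and 9.95% lower, which take in many low genes. With the filter at a mean of at least 1 FPKM, all genes had 1270 higher and 1598 lower calls, of 4522 positive and 4727 negative differences. The exchange factors then had 2 higher and 2 lower of 13. Vav1, an exchange factor of blood cells that tyrosine kinases switch on, fell from 148.3 to 110.0 FPKM (log2 difference -0.43, limma adjusted p = 0.00361), with every PGRN KO library below every WT library. Elmo1, which works with DOCK proteins to activate Rac, fell from 9.48 to 6.41 FPKM (-0.50, limma adjusted p = 0.00142). The DOCK family exchange factors Dock5 and Dock8 rose, from 8.71 to 11.1 FPKM and from 13.2 to 15.2 FPKM (limma adjusted p = 0.0154 and 0.0311). Dock8, though in this list, is known mainly as an exchange factor for Cdc42, a relative of Rac. Dock2, of the same family, was not called (14.9 FPKM in WT and 14.5 FPKM in PGRN KO, limma adjusted p = 0.703). The higher calls numbered 0 without WT 1 or PGRN KO 5 and 1 without any 1 of the other libraries, while 2 genes stayed lower in each of these fits. Among GTPase-activating proteins for Rac and RhoGDIs, which switch Rac off or hold it in the cytosol, 3 of 9 rose and 2 fell. Abr, a Rac GTPase-activating protein, fell from 64.2 to 44.8 FPKM (-0.51, limma adjusted p = 0.00122). The 2 abundant RhoGDIs went opposite ways: Arhgdib, that of blood cells, rose from 474.0 to 563.9 FPKM (limma adjusted p = 0.0298), and Arhgdia fell from 282.7 to 231.0 FPKM (limma adjusted p = 0.0367). Arhgap15 and Racgap1, which are GTPase-activating proteins, rose from 1.09 to 1.61 and from 7.22 to 8.77 FPKM. In this list 0 genes were called higher by limma without WT 1, WT 2, WT 3, PGRN KO 5 or PGRN KO 6, and 0 when every gene above 0 was tested (1 lower). Of 9 other small GTPases 0 were called by limma, with 2 at an unadjusted p under 0.05. Of 10 Rap1 regulators 1 rose, Rasgrp2, which activates Rap1, from 3.66 to 5.20 FPKM (limma adjusted p = 0.0137). In the same list 2 fell. Sipa1l1, a Rap GTPase-activating protein, fell from 9.91 to 6.51 FPKM (limma adjusted p = 0.00892). Rapgef2, a Rap exchange factor, fell from 4.49 to 3.53 FPKM (limma adjusted p = 0.0233). Without PGRN KO 5 this list had 0 higher and 1 lower, and without WT 1, WT 2 or WT 3 it had 1 and 1. Plain totals gave 2 higher and 1 lower, and voom 5 higher and 2 lower.

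Among kinases and lipid enzymes that act on the oxidase, 5 of 23 rose and 2 fell, beside 7.94% and 9.95% of all genes tested. Pak1, a kinase that binds GTP-bound Rac, rose from 6.48 to 9.84 FPKM (log2 difference 0.54, limma adjusted p = 0.00838), and Mapk14, the p38 kinase that phosphorylates p47phox, rose from 27.2 to 32.4 FPKM (limma adjusted p = 0.0115). Pik3cg, the catalytic subunit of the phosphoinositide 3-kinase that answers chemoattractants, rose from 9.41 to 11.7 FPKM, whereas its regulatory partner Pik3r5 fell from 25.6 to 19.3 FPKM (limma adjusted p = 0.0287 and 0.0128). Mapk3, the kinase ERK1, rose from 141.6 to 163.3 FPKM (limma adjusted p = 0.0196), and Pik3r6, another regulatory subunit, was the remaining gene that rose. Prdx6, a peroxiredoxin with phospholipase activity, fell from 108.9 to 90.2 FPKM (limma adjusted p = 0.00908). In this list 1 gene was higher and 1 lower without WT 2 or PGRN KO 5, 2 were higher and 2 lower without WT 1, 3 and 2 without WT 3 or PGRN KO 6, and 8 were higher with plain totals and 9 with voom.

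Among transcription factors known to act on oxidase genes, 5 of 10 fell and 0 rose by limma, with a median log2 difference of -0.29. All genes tested had 9.95% called lower and 7.94% called higher. By limma, 1 gene of the list lay higher at an unadjusted p under 0.05, Cebpe, at 86.2 and 101.1 FPKM in WT and PGRN KO. Irf1 and Irf8, interferon regulatory factors, fell from 30.3 to 23.5 and from 3.09 to 2.13 FPKM (limma adjusted p = 0.00757 and 0.0108). Jun fell from 219.2 to 142.5 FPKM (-0.62, limma adjusted p = 0.00476), Cebpa from 12.6 to 9.13 FPKM and Elf1 from 14.8 to 11.9 FPKM. Spi1, the ETS factor PU.1, stood at 192.8 and 170.6 FPKM in WT and PGRN KO (limma adjusted p = 0.169). With plain totals the list had 1 gene higher and 5 lower, and a median of -0.17.

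**Figure D5:**
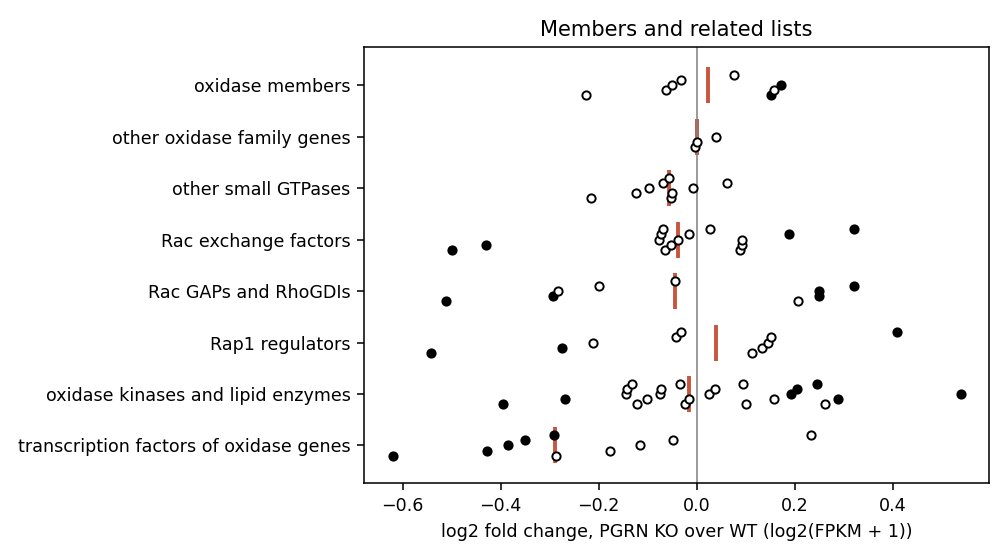
Log2 difference (PGRN KO minus WT) of every tested gene among the 8 oxidase genes (top row) and in the pathway lists, each list on its own row. Filled points have an adjusted p under 0.05 and red bars are list medians, of which that of the transcription factors lies lowest.

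The neutrophil label was checked against markers. The counts of calls below stand beside 7.94% of all genes tested called higher and 9.95% called lower. Summed over 12 neutrophil marker genes the level was 72377 to 76943 FPKM in WT and 73688 to 83698 FPKM in PGRN KO, with 1 gene higher and 2 lower (3 and 0 under plain totals or quantile normalization, 5 and 1 with voom). Without WT 1, WT 2, WT 3 or PGRN KO 5 limma called 0 of the 12, and without PGRN KO 4 it called 3 higher and 2 lower. Genes of primary granules, made by promyelocytes, moved with genotype: 7 of 7 tested rose, and their sum went from 297.6 to 317.4 FPKM in WT to 825.8 to 891.6 FPKM in PGRN KO. Markers of B and plasma cells also rose (5 of 7, summed 88.8 to 96.5 against 147.2 to 160.6 FPKM), although Pax5 was at 0 in every library. For monocyte markers, 1 of 8 rose and 3 fell, with a median log2 difference of -0.12. The sum over the 12 listed genes went the other way (527.7 to 533.1 against 552.8 to 700.5 FPKM), and a sum weighs abundant genes most. Eosinophil and basophil markers rose in 7 of 9 and fell in 1 (summed 13.1 to 14.4 against 22.9 to 27.8 FPKM), and erythroid markers rose in 4 of 5 (2.65 to 4.87 against 7.98 to 8.60 FPKM). Erythroid calls numbered 1 without WT 3, PGRN KO 4, PGRN KO 5 or PGRN KO 6 and 2 without WT 1 or WT 2, and the higher eosinophil and basophil calls 4 without WT 1, WT 3 or PGRN KO 6. Higher calls of B and plasma cell markers numbered 3 without WT 1, WT 3 or PGRN KO 5. T and NK cell markers had 0 of 2 called by limma (0 at an unadjusted p under 0.05), with Cd3e and Cd3g at 0. The part of these markers in the differences of the oxidase genes was not tested, and in bulk libraries fewer cells of a type and less RNA per cell cannot be told apart.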

How the data were processed

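RNA was measured in 3 WT and 3 PGRN KO libraries of bone marrow neutrophils. The submitters' processing notes name HISAT2 2.0.5, featureCounts 1.5.0-p3, DESeq2 1.20.0 and the mm10 build. Whether counting used strand is not stated there. The deposited values are FPKM as the authors computed them. Multiplied by gene length they gave whole fragments for all values within 0.05, so each library's depth could be recovered, and the authors' library sizes moved log2 differences by -0.12 against plain totals.

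From the deposited FPKM, genes with a mean of at least 0.1 were tested on log2(FPKM + 1) with limma 3.58.1 (lmFit and eBayes with a trend, R 4.3.3), with Benjamini-Hochberg adjustment over 14807 genes. A log2 difference on this scale understates the change of low genes. Ratios were tested by exact two-sided permutation (scipy 1.17.1). Gene IDs were matched to GENCODE M21 for 54495 of 54532 genes, and RefSeq promoters to 3 of the 8 genes. Named genes were Grn, the 8 genes, Cybc1, up to 6 called genes a pathway list by absolute log2 difference (mean of at least 1 FPKM), markers as counts and the gene most like each of them; a few items under this rule are not reported here. Genes that share exons or sequence with one of the 8, and a few list genes that were not called, were named beside that rule. The oxidase members and list genes were chosen with earlier results of these data known. Alternatives were other pseudocounts, filters, scalings, variance settings, voom on recovered fragments and leaving out each library.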

Additional observations from a re-analysis of the deposited data

How the results depend on the processing

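No paired analysis was possible because the 2 genotypes share no replicate number. The number of oxidase genes called was 2, and 1 when every gene above 0 was tested, 0 without the trend in eBayes (limma, with 3 at an unadjusted p under 0.05), 4 with voom on fragments, and 0 to 2 when 1 library was left out. All genes called numbered 2648, 4238 with voom (2986 higher and 1252 lower, with the median of all genes at 0.12), and 1385 to 2229 when 1 library was left out, fewest without PGRN KO 5. Pathway genes called numbered 24, 38 with voom, and 11 to 22 when 1 library was left out. With fewer libraries each fit has less power by its construction. For the other changes the cause was not tested. Directions turned for Rac1 under quantile normalization (0.038), for Cybb, Ncf4 and Rac1 with plain totals (0.057, 0.070 and 0.087), and for the same genes with voom (0.057, 0.071 and 0.089), none of them called. Rac2 and Ncf1 missed the threshold without the trend (limma adjusted p = 0.0619 and 0.0852), and Ncf1 when every gene above 0 was tested (0.0504). Rap1a passed with voom (limma adjusted p = 0.0235) and Hvcn1 among protein-coding genes (0.0406).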

Other observations

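For 7 of the 8 genes, the gene with the most similar pattern over the 6 libraries was taken from 3481 genes with a mean of at least 10 FPKM, by the root mean square of the log2 deviations. The nearest to Rac2 was Mthfd2, an enzyme of mitochondrial folate metabolism (0.0157). Cybb was nearest to Tifa (0.0125), Cyba to Rcsd1 (0.0132), Ncf4 to Prpf6 (0.0134), Rac1 to Shisa5 (0.0118), Rap1a to Psmd14 (0.0221) and Hvcn1 to Hsp90b1 (0.0350). Among the 8 genes themselves, Rac2 and Ncf1 were each other's nearest (0.0299), as were Ncf4 and Rac1 (0.0266). The points share the same libraries and scaling, so these distances describe likeness of pattern only.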
